A study of Homo sapiens with 9 samples.

Results

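Histone genes were read in RKO cells, a human colorectal cancer cell line, after depletion of UHRF1, after the histone deacetylase inhibitor trichostatin A (TSA), after both, and after the DNA methyltransferase inhibitor decitabine, which the labels call 5-aza-2'-deoxycytidine and which is written 5-aza-dC below. A gene was taken as a histone gene when the array's gene name began with HIST1H, HIST2H, HIST3H or HIST4H, or was H1F0, H1FX, H2AFX, H2AFZ, H2AFY, H2AFY2, H2AFJ, H2AFV, H3F3A or H3F3B. This rule found 80 genes with 101 probes among 36337 genes with 50599 probes. Of these, 70 are clustered genes (84 probes) and 10 are variant genes outside the clusters (17 probes). All cells were RKO. The siCONT arrays carried a control siRNA and the siUHRF1 arrays an siRNA against UHRF1, both for 72 h and then 24 h in ethanol as the mock treatment. The siCONT + TSA and siUHRF1 + TSA arrays had the same siRNAs for 72 h and then 300 nM TSA for 24 h. Each of these 4 groups held 2 arrays. The 2 siUHRF1 arrays are not repeats of 1 reagent: one received siUHRF1-1 and the other siUHRF1-2, with TSA as well as without it. A single array came from RKO cells that received no siRNA and were kept in 5-aza-dC at 1 µM for 72 h. The sources used here do not say that arrays of a group came from separate cultures, so p-values measure only the spread between these arrays.

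Histones H2A, H2B, H3 and H4 form the core of the nucleosome, and linker histone H1 binds where DNA enters and leaves it. The clustered genes serve chromatin made during DNA replication: their transcripts peak in S phase, lack introns and usually end in a conserved stem-loop rather than a poly(A) tail. Most variant genes are transcribed through the cell cycle into polyadenylated mRNA. Variant proteins mark particular chromatin, such as H3.3 at active genes or gamma-H2AX at DNA breaks. UHRF1 brings DNMT1 to newly replicated DNA and so keeps DNA methylation in place. The labelling kit of these arrays primes on poly(A), so a clustered histone signal here is that of the transcripts that this priming reaches.

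Each level below is the log2 signal of a probe minus the log2 of its array's 75th percentile, and each change is a difference of such levels. The linker histone genes give the largest range, and the 60-base probes of HIST1H1A and HIST1H1C show what was measured. They lie at chr6:26017351-26017410 and chr6:26056050-26056109, both on the minus strand of hg19. The capitals mark the longest run of bases that both hold, which is 11 bases.
HIST1H1A: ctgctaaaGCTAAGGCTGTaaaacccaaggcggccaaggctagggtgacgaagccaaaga
HIST1H1C: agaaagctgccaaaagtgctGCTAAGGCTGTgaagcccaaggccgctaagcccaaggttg

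Probes of the clustered genes resembled each other more than those of the variants. Of the 84 clustered probes, 28 shared a run of at least 20 bases with a probe of another member, and 0 of the 17 variant probes did. The longest shared run had a median of 14 bases for clustered and 9 bases for variant probes. Signals of near-identical clustered genes may therefore be mixed, and single gene names in these families are uncertain. The stem-loop consensus that ends replication-dependent histone transcripts was found in 7 of all 50599 probes, and 6 of the 7 belonged to clustered genes. Its stretch is shown for these 6 probes, with the consensus in capitals.
HIST1H2AI: accaaaGGCTCTTTTCAGAGCCaccta
HIST1H2BE: cccaaaGGCTCTTTTCAGAGCCactca
HIST1H2BF: cccaaaGGCTCTTTTAAGAGCCa
HIST1H3H: cccaaaGGCTCTTTTCAGAGCCaccca
HIST1H4K: acaaaaGGCCCTTTTTAGGGCCcc
HIST2H3A: ccaaaaGGCTCTTTTCAGAGCCacc

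Of the 80 genes, 70 were tested: 60 clustered genes and all 10 variants, among 17737 genes and 23726 probes tested. Signal well above background on all 8 siRNA arrays was found for 58 clustered genes and 9 variants, and H2AFJ passed on 7 arrays. HIST1H1A, HIST1H2AA, HIST1H2APS1, HIST1H2BA and HIST4H4 passed on some of the 8 arrays. HIST1H1B, HIST1H1T, HIST1H2AL, HIST1H2BE, HIST1H4G, HIST2H2BA and HIST2H4A passed on none. UHRF1, the targeted gene, stood at 2.69 on both siCONT arrays, at 0.36 and 0.07 with siUHRF1-1 and siUHRF1-2, at 2.87 and 2.86 with TSA, and at -0.34 and -0.62 with the siRNAs and TSA. It fell by 2.47 with siUHRF1 alone (SE 0.141, limma adjusted p = 0.00238). Of 12 colorectal epithelial markers, KRT8, KRT18, CDX1 and CDX2 were above background on all 8 arrays, while CDH1, VIL1, CDH17, LGR5 and LGALS4 were on none. Of these markers, 5 were tested and 2 were called higher in siUHRF1 + TSA than in siCONT, beside 16.1% of all genes. KRT18 rose by 0.81 in siUHRF1 + TSA, and KRT19 was called higher with control signals not above background. Of 12 markers of other cell types, 7 were tested. Of these, VWF, PDGFRB, DCN and COL1A1 were called higher in siUHRF1 + TSA than in siCONT, beside 16.1% of all genes. COL1A1 rose by 1.67 and was above background on all 8 arrays, while VWF, PDGFRB and DCN were so on 6, 3 and 2 arrays. PDGFRB, DCN and KRT19 were tested only through groups where their signal was above background, so their p-values are not independent of that selection. PECAM1, COL3A1 and CD3E were above background on none of the 8 arrays. Their part in the histone results was not tested.

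UHRF1 depletion, taken as a group of both siRNAs, gave no called histone gene. Of the 70 tested, 0 passed an adjusted p of 0.05 against siCONT with limma, where 0.637% of all tested genes did, and 5 of the 70 had an unadjusted p under 0.05. Leaving out either siUHRF1 array gave 1 called gene. This count rests on a large spread within the siUHRF1 group. The absolute difference between its 2 arrays had a median of 0.60 over the clustered genes and 0.26 over all genes, against 0.038 and 0.070 between the siCONT arrays. The arrays lay on opposite sides of the controls. The median clustered gene differed by -0.36 from the siCONT mean with siUHRF1-1 and by 0.21 with siUHRF1-2. With siUHRF1-1, 55 of 60 clustered genes were below both siCONT arrays, against 50.6% of all genes, and with siUHRF1-2, 57 of 60 were above both, against 54.2% of all genes.

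The same split was present after TSA. Relative to the siCONT + TSA arrays, 41 of 60 clustered genes were below both with siUHRF1-1 (44.5% of all genes) and 50 of 60 were above both with siUHRF1-2 (44.6%). The replicate differences of the siUHRF1 and siUHRF1 + TSA groups correlated across genes at 0.466, where the other pairs of groups gave -0.047 to 0.080; genes are not independent replicates, so this is a description.

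**Figure D1:**
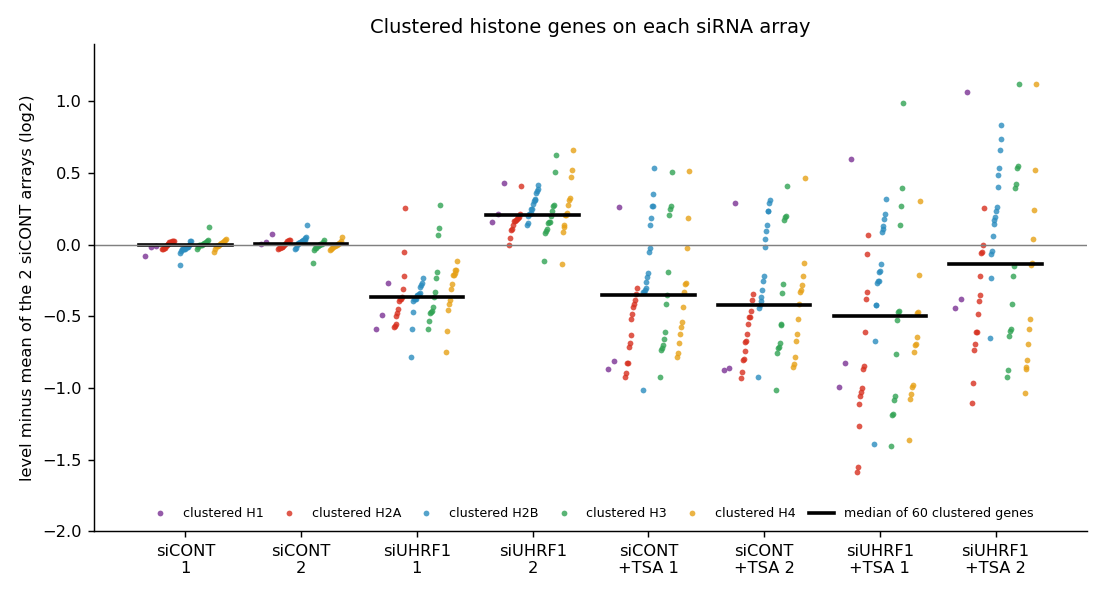
Change of each clustered gene from the mean of the siCONT arrays (log2, vertical axis) on each of the 8 siRNA arrays (horizontal axis), with 59 genes as points and the median of all 60 as a line; HIST1H1A is left out for scale. The median was -0.36 with siUHRF1-1 and 0.21 with siUHRF1-2, and after TSA it was -0.50 and -0.13 with the same siRNAs.

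Each siRNA was then set against the control siRNA in a limma fit with siRNA and TSA as additive terms, a design chosen after seeing the data. With siUHRF1-1, 24 of 60 clustered genes fell and 2 rose, beside 6.12% of all genes called lower and 5.89% called higher. The median clustered change was -0.26. The largest falls were those of HIST1H4A (-0.73, SE 0.065, adjusted p = 0.00793), HIST1H2AG (-0.62, SE 0.079, adjusted p = 0.0137) and HIST1H2AI (-0.60, SE 0.068, adjusted p = 0.0119), which encode H4 and H2A. With siUHRF1-2, 14 clustered genes rose and 0 fell, beside 9.74% and 6.02% of all genes. The median clustered change was 0.23, and 57 of 60 genes were above 0. HIST1H4J rose by 0.65 (SE 0.051, adjusted p = 0.00338) and HIST1H2BK by 0.62 (SE 0.15, adjusted p = 0.043).

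Between the 2 siRNAs, 40 of the 60 clustered genes were higher with siUHRF1-2 and 0 were lower, beside 8.41% and 5.63% of all genes. The median difference was 0.53, against 0.083 over all genes, and it was spread over the families: 2 of 4 H1, 10 of 14 H2A, 11 of 16 H2B, 9 of 13 H3 and 8 of 13 H4 genes were called. HIST1H2AB differed by 0.87 (SE 0.084, adjusted p = 0.00824) and HIST1H2BF by 0.86 (SE 0.081, adjusted p = 0.0079). Of the 10 variants, 2 were called higher with siUHRF1-2. UHRF1 itself changed by -2.77 with siUHRF1-1 and by -3.05 with siUHRF1-2, and the difference of -0.28 was not called. Of 30 genes of the DNA replication machinery, 5 were called lower and 0 higher with siUHRF1-1, and 3 were called higher with siUHRF1-2 than with siUHRF1-1. These counts depended on the background correction: with normexp, 0 histone genes were called for siUHRF1-1, 1 for siUHRF1-2 and 0 between them, with clustered medians of -0.17, 0.26 and 0.47. With spike-in scaling, 13, 6 and 10 histone genes were called and the clustered medians shrank to -0.11, 0.10 and 0.24, while the median of all genes between the siRNAs became -0.20. Each siRNA sat in a column of its own on the slide, so siRNA and slide column cannot be told apart.

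HIST1H1A, HIST1H3A, H3F3A and H1FX moved the same way with both siRNAs. HIST1H1A, a linker histone gene, rose with both, with fitted differences of 3.12 (SE 0.26) and 4.17 (SE 0.26) that rest on control signals not above background and so give no exact fold. H1FX, which encodes the replication-independent linker H1.10, rose by 0.55 (SE 0.067) and 0.72 (SE 0.067). HIST1H3A rose by 0.40 and 0.64, and H3F3A, a gene of the H3.3 variant, by 0.31 and 0.60. The adjusted p of these values lay between 0.00214 and 0.0333. HIST1H1A was tested only because it was above background in groups with siUHRF1, so its p-values are not independent of that selection. The HIST1H3A probe shares a run of 19 bases with an H3F3A probe, so these genes may not give separate readings. By array, H1FX stood at 0.91 and 0.81 in siCONT, 1.36 and 1.55 in siUHRF1, 0.52 and 0.39 in siCONT + TSA, and 1.06 and 1.20 in siUHRF1 + TSA. The siUHRF1 arrays were thus above the control arrays at each treatment, without overlap.

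TSA alone was accompanied by lower levels of most clustered genes. Of 60 tested, 44 were below both siCONT arrays on both siCONT + TSA arrays, which held for 29.8% of all genes. The median clustered change was -0.40, that of the variants -0.16 and that of all genes 0.082. Only a few passed the test: 0 histone genes rose and 4 fell, where 10.8% of all genes were called, 6.97% higher and 3.86% lower. In a bulk extract, fewer cells that transcribe a gene and less RNA per cell cannot be told apart.

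The 4 genes were HIST1H4L, HIST1H2AC, HIST1H4B and H1F0. HIST1H4L, an H4 gene, stood at 6.40 and 6.34 in siCONT and at 5.59 and 5.51 with TSA, and fell by 0.82 (SE 0.127, adjusted p = 0.018). H1F0, the linker variant of differentiated and resting cells, stood at 3.97 and 3.89 in siCONT and at 3.15 and 3.17 with TSA, and fell by 0.77 (SE 0.0942, adjusted p = 0.0116). HIST1H2AC fell by 0.81 (SE 0.181, adjusted p = 0.0423) and HIST1H4B by 0.77 (SE 0.14, adjusted p = 0.0252). For each of the 4 genes, the TSA arrays lay below the siCONT arrays. Leaving out any 1 of the siCONT or siCONT + TSA arrays left 0 of these calls, and leaving out either siUHRF1 array gave 23.

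The spread shared by all groups in this fit includes the siRNA difference. With the siRNA number as a block in the siUHRF1 groups, chosen after seeing the data, 43 histone genes fell and 6 rose after TSA, beside 11% and 18.8% of all genes. By family, 14 of 14 H2A, 5 of 16 H2B, 8 of 13 H3, 10 of 13 H4 and 2 of 4 H1 genes were called lower. Of the variants, 4 were called lower and 1 higher. The largest blocked falls were those of HIST1H3B (-0.97, adjusted p = 0.00651), HIST1H2BF (-0.97, adjusted p = 0.00523) and HIST1H2AG (-0.91, adjusted p = 0.00523).

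The families differed in size of change. The medians after TSA were -0.58 for H2A, -0.49 for H3, -0.43 for H4, -0.28 for H1 and -0.12 for H2B, and all 14 H2A genes were below both siCONT arrays on both TSA arrays, where 8 of 16 H2B genes were. These signs held under normexp, quantile and spike-in scaling, where the H2A median ran from -0.77 to -0.70 and the H2B median from -0.31 to -0.18. For HIST1H2AG, an H2A gene, the levels were 2.78 and 2.73 in siCONT and 1.86 and 1.82 with TSA. For HIST1H2BL, an H2B gene, they were 4.0 and 4.07 against 4.22 and 4.07. The H2A gene lay below its controls on both arrays, and the H2B gene did not.

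**Figure D2:**
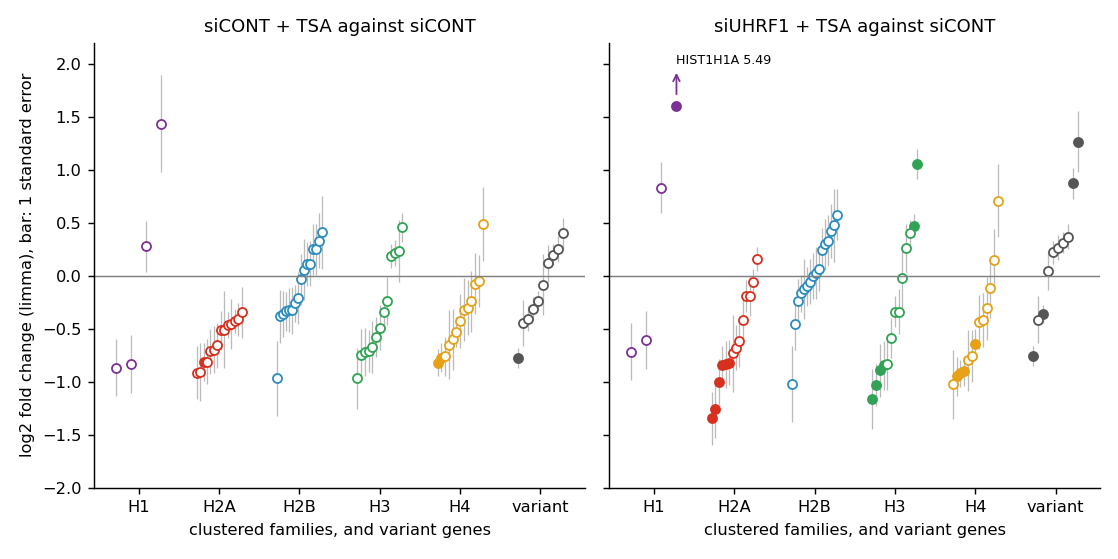
Change from siCONT (log2, vertical axis) of each tested histone gene by family (horizontal axis), for siCONT + TSA and siUHRF1 + TSA; filled points passed the limma test, bars are 1 standard error, and HIST1H1A, whose fitted 5.49 rests on controls not above background, is drawn as an arrow. H2A, H3 and H4 genes sit mostly below 0, with medians of -0.58, -0.49 and -0.43 after TSA, while H2B genes lie on both sides of it.

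H2A and H2B genes often lie head to head with a shared promoter region between them, which allowed a comparison of neighbours. In 10 pairs on opposite strands, the probes were 478 to 1100 bases apart. After TSA, the H2A gene had the lower change in 9 of 10 pairs, with a median H2B minus H2A difference of 0.51. HIST1H2AI changed by -0.90 and its neighbour HIST1H2BL by 0.11. HIST1H2AM changed by -0.65 and its neighbour HIST1H2BO by 0.25. The exception was HIST1H2AD at -0.52 with HIST1H2BF at -0.97. In siUHRF1 + TSA the H2A gene was again lower in 9 pairs (median difference 0.75), with the same exception, though both comparisons share the siCONT arrays. On the 5-aza-dC array it was lower in 8 pairs (median difference 0.92). The genes of a pair share a promoter region but not a probe, and no test was run on the pairs. Probes of different pairs do share bases: those of HIST1H2BL and HIST1H2BO a run of 31, and those of HIST1H2AJ and HIST1H2AK a run of 24. The 10 pairs may therefore not be 10 separate readings.

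**Figure D3:**
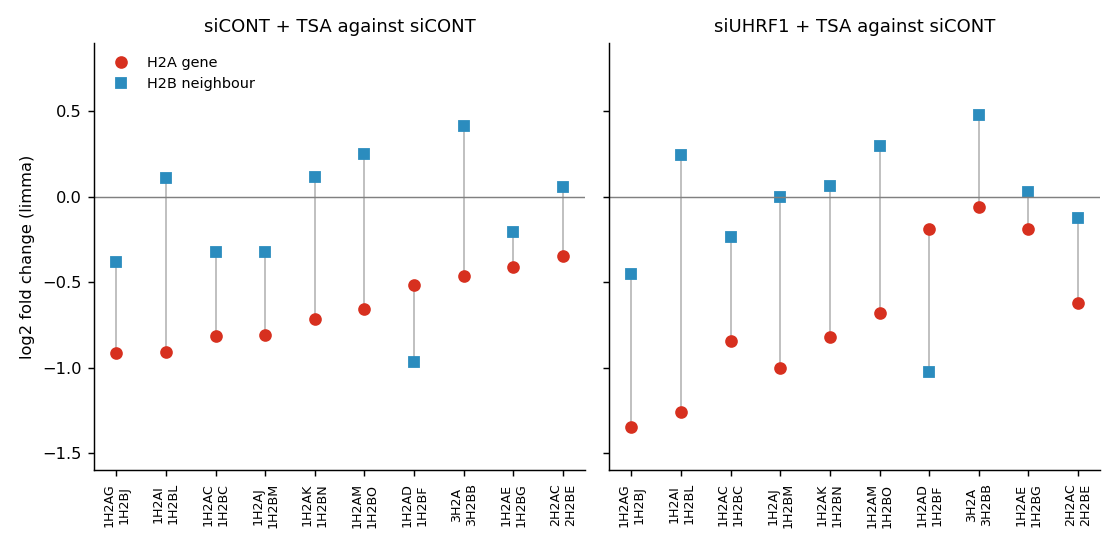
Change from siCONT (log2, vertical axis) of the H2A gene (circle) and the H2B gene (square) of each of 10 neighbouring pairs (horizontal axis), joined by a line, for siCONT + TSA and siUHRF1 + TSA. The H2A gene is the lower in 9 of 10 pairs in each panel, and HIST1H2AD with HIST1H2BF runs the other way in both.

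Promoters of H2A and H2B genes carry the same octamer motif. The 300-base RefSeq promoters (GRCh38.p14) matched 71 of the 80 genes. ATTTGCAT on either strand was present in 11 of 15 H2A promoters and 14 of 18 H2B promoters. It was present in 1 of 11 H3, 0 of 12 H4 and 0 of 6 H1 promoters, and in 1.8% of all 27305 promoters. Promoters of neighbouring genes can be largely the same DNA, so an octamer can be counted for more than 1 family. That of HIST1H2AM (chr6:27893136-27893435) overlaps that of HIST1H2BO. The H3 promoter with the motif, that of HIST1H3D, has the same coordinates as that of HIST1H2AD. TATAAA was present in 66.1% of clustered promoters and 12% of all, and CCAAT in 85.5% and 35.7%. The promoter of HIST1H2BO (chr6:27893175-27893474, plus strand), the H2B gene of the pair above, is shown with the octamer in capitals as it reads on that strand.
HIST1H2BO: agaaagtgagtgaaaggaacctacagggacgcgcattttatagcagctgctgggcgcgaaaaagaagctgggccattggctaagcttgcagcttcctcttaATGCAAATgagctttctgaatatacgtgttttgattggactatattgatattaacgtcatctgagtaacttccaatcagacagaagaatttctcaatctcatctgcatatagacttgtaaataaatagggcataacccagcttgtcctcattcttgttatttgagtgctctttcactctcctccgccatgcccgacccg

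UHRF1 depletion together with TSA gave 21 called histone genes of 70 against siCONT, where 24.1% of all genes were called. Of these, 5 rose and 16 fell, beside 16.1% and 8.07% of all genes. Of the 60 clustered genes, 3 rose and 14 fell, and 35 were below both siCONT arrays on both arrays, which held for 28.6% of all genes. The medians were -0.34 for clustered and 0.24 for variant genes, against 0.067 over all genes. With the siRNA number as a block, chosen after seeing the data, 33 fell and 15 rose, beside 17.1% and 26.1% of all genes. Leaving out either siCONT array gave 4 calls, leaving out siUHRF1 + TSA replicate 1 gave 8, leaving out siCONT + TSA replicate 1 or 2 gave 13 or 10, and leaving out siUHRF1 replicate 2 gave 32.

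H2A, H3 and H4 genes made up all 14 clustered genes that were called lower: 6 of 14 H2A, 4 of 13 H3 and 4 of 13 H4 genes. HIST1H2AG stood at 1.17 and 1.65 in siUHRF1 + TSA, below its siCONT levels of 2.78 and 2.73, and fell by 1.34 (SE 0.249, adjusted p = 0.0136). HIST1H2AI stood at -0.40 and 0.19 against 1.17 and 1.12, and fell by 1.26 (SE 0.275, adjusted p = 0.0232). HIST1H3B, an H3 gene, stood at 3.61 and 4.09 against 5.00 and 5.03, and fell by 1.16 (SE 0.284, adjusted p = 0.0323). None of these arrays overlapped the controls. HIST2H3A, HIST1H2AJ, HIST1H4D, HIST1H4L and HIST1H4B completed the 8 largest falls and fell by 1.03, 1.00, 0.95, 0.92 and 0.90, with adjusted p between 0.00543 and 0.0216. HIST1H3H, HIST1H3D, HIST1H2AC, HIST1H2AH, HIST1H2AK and HIST1H4C fell by 0.89 to 0.65. Of 16 H2B genes, 0 passed the test, 1 had an unadjusted p under 0.05, and 2 were called lower and 3 higher with the block. The H1 genes HIST1H1D and HIST1H1E changed by -0.72 and -0.60 without a call. With the block, 2 of 4 H1 genes were called lower and 2 higher.

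The rises were those of HIST1H1A, HIST1H3A, HIST3H3, H2AFJ and H3F3A. HIST1H1A was not above background on either siCONT array (-6.66 and -6.56) or siCONT + TSA array (-5.19 and -5.16), and stood at -4.11 and -2.66 in siUHRF1 and at -1.43 and -0.80 in siUHRF1 + TSA. The siUHRF1 + TSA arrays lay above the siUHRF1 arrays, and both groups above the controls, whose own order has no meaning below background. It was at least 9.23-fold higher in siUHRF1 + TSA than in siCONT (adjusted p = 0.00112), and at least 8.15-fold higher than in siCONT + TSA (adjusted p = 0.00725). These bounds set the brighter mean against the dimmest signal well above background, on the scale of the processed signal. With normexp background correction and an offset of 50, the differences were smaller, 1.83 (adjusted p = 0.00435) and 0.995 (adjusted p = 0.287) on the log2 scale, so the second call was lost. With siUHRF1 alone it was at least 1.92-fold higher, with an adjusted p of 0.056 that did not pass. It passed with the siRNA number as a block (adjusted p = 0.00995). HIST1H1A was tested only because it was above background in groups with siUHRF1, where it was high. Its p-values are therefore not independent of that selection.

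HIST1H3A, an H3 gene of the large chromosome 6 cluster, rose where most H3 genes did not. It stood at 3.29 and 3.22 in siCONT, 3.53 and 3.88 in siUHRF1, 3.76 and 3.67 in siCONT + TSA and 4.25 and 4.38 in siUHRF1 + TSA, and rose by 1.06 in the last (SE 0.139, adjusted p = 0.0048). All treated arrays were above the siCONT arrays. The HIST1H3A probe shares a run of 19 bases with an H3F3A probe. That H3F3A probe changed by 0.48 with TSA and 1.06 in siUHRF1 + TSA, where HIST1H3A changed by 0.46 and 1.06. The HIST1H3A signal may therefore hold signal of H3F3A, which was not tested. HIST3H3, which encodes the testis histone H3t, stood at 5.87 and 5.85 in siCONT and at 6.26 and 6.41 in siUHRF1 + TSA, and rose by 0.47 (SE 0.112, adjusted p = 0.0286). Its arrays did not overlap. These levels are those of the probe, and signal from other H3 transcripts was not tested.

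Among the variants, H3F3A and H2AFJ rose and H1F0 and H2AFY fell. H3F3A stood at 7.14 and 7.16 in siCONT, 7.41 and 7.76 in siUHRF1, 7.58 and 7.53 in siCONT + TSA and 7.91 and 8.14 in siUHRF1 + TSA, a rise of 0.87 (SE 0.145, adjusted p = 0.00961). The other 3 H3F3A probes rose by 0.89 to 1.06, each past the test. H3F3B, the second gene of the H3.3 protein, changed by 0.31 with its brightest probe (adjusted p = 0.0719), and its other probe rose by 0.61 (adjusted p = 0.0117). H2AFJ, an H2A variant, stood at -3.55 and -3.44 in siCONT, -3.64 and -3.34 in siUHRF1, -4.0 and -3.17 in siCONT + TSA and -2.42 and -2.05 in siUHRF1 + TSA. Only the last group lay apart from siCONT, with a rise of 1.27 (SE 0.286, adjusted p = 0.0253), which was 0.54 with normexp (adjusted p = 0.238). H1F0 stood at 3.11 and 3.24 in siUHRF1 + TSA, below its siCONT levels, and fell by 0.75 (SE 0.0942, adjusted p = 0.0041). H2AFY, a macroH2A gene, stood at 4.58 and 4.56 in siCONT and 4.23 and 4.19 in siUHRF1 + TSA, and fell by 0.36 (SE 0.0856, adjusted p = 0.0289). Normexp and spike-in scaling both ended the calls of H2AFY and HIST3H3, and normexp those of HIST1H3D and HIST1H4C.

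The other variants did not pass. H2AFX, the source of gamma-H2AX, stood at 4.85 and 4.82 in siCONT, 4.52 and 4.53 with TSA and 4.95 and 5.16 in siUHRF1 + TSA, so it lay below the controls in one comparison and above in the other. H2AFZ, an H2A.Z gene, stood at 5.80 and 5.81 in siCONT and at 5.64 and 6.06 in siUHRF1 + TSA, with overlap. H2AFV, the other H2A.Z gene, changed by 0.37 (SE 0.122, adjusted p = 0.075), H1FX by 0.27 (SE 0.117, adjusted p = 0.154) and H2AFY2, the other macroH2A gene, by -0.41 (SE 0.218, adjusted p = 0.22).

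**Figure D4:**
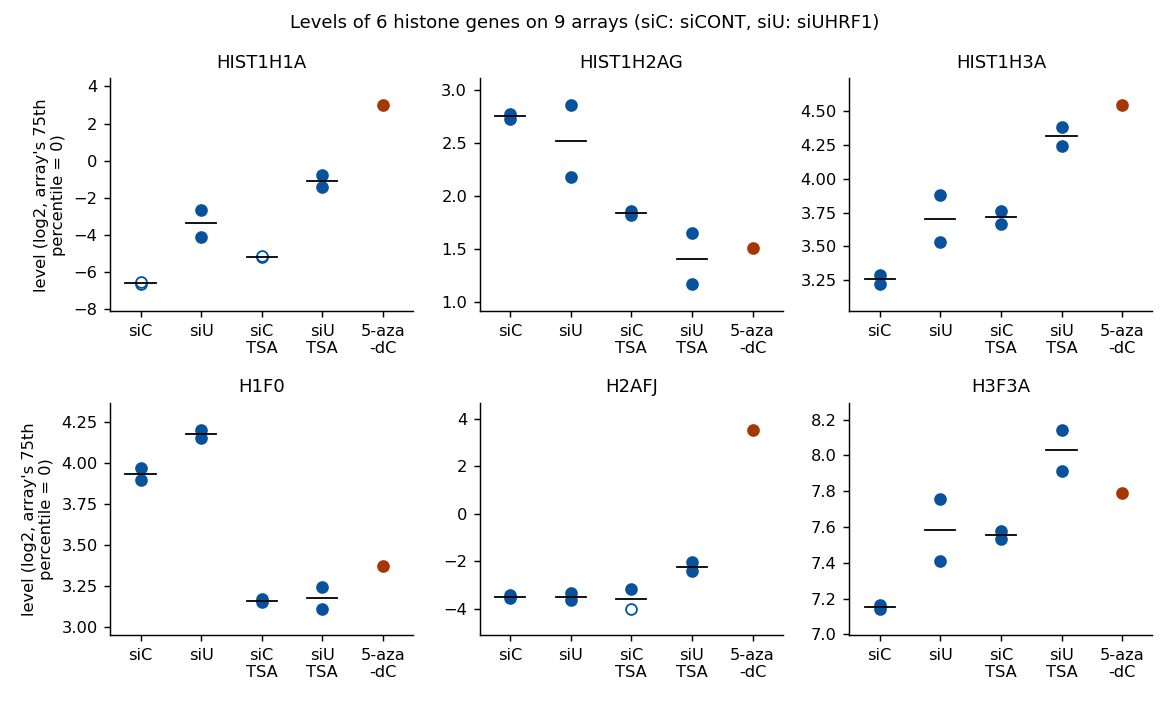
Levels of HIST1H1A, HIST1H2AG, HIST1H3A, H1F0, H2AFJ and H3F3A on each array (log2 signal relative to the array's 75th percentile, vertical axis), by group; open points were not well above background. HIST1H1A goes from -6.66 and -6.56 in siCONT to -1.43 and -0.80 in siUHRF1 + TSA, while HIST1H2AG goes from 2.78 and 2.73 to 1.17 and 1.65.

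UHRF1 depletion in the presence of TSA called 2 histone genes higher and 0 lower, beside 3.81% of all genes called and 3.22% called higher. They were HIST1H1A, given above, and H1FX, which rose by 0.67 (SE 0.117, adjusted p = 0.0364). The H1FX call was made in 8 of 20 alternatives and was lost, among others, with the replicate number as a block (adjusted p = 0.0658), normexp (0.175), spike-in scaling (0.0687) and only the arrays compared (0.0939). H2AFX changed by 0.53 and H3F3A by 0.47 in this comparison, and both passed only with the siRNA number as a block (adjusted p = 0.0124 and 0.0186), where 10 histone genes were called higher and 3 lower. Leaving out either siUHRF1 array gave 4 calls, and leaving out either siCONT array, either siUHRF1 + TSA array or siCONT + TSA replicate 1 gave 1. TSA in depleted cells, siUHRF1 + TSA against siUHRF1, called 4 higher and 8 lower, where 16.3% of all genes were called, 10.8% higher and 5.48% lower. HIST1H1C, a linker histone gene, stood at 4.51 and 5.16 in siUHRF1 and 5.60 and 6.07 with TSA added, and rose by 1.00 (SE 0.242, adjusted p = 0.0417), beside HIST1H1A (2.27), H2AFJ (1.26) and HIST1H3A (0.61). HIST1H2AG fell by 1.11, H1F0 by 1.00, HIST1H4D by 0.90, HIST1H4B and HIST1H4L by 0.86, HIST2H3A by 0.84, HIST1H2AC by 0.72 and HIST1H4C by 0.66. With the block, 12 rose and 33 fell, beside 21.5% and 13.3% of all genes. Leaving out an array gave 3 calls for either siCONT array, 4 for either siCONT + TSA array, and 1 and 6 for siUHRF1 + TSA replicates 1 and 2. The difference between the effects of depletion with and without TSA passed for 0 of 70 histone genes with limma and for 0.361% of all genes, and 2 histone genes had an unadjusted p under 0.05, so no histone gene was shown to respond to depletion differently under TSA. The siRNA block gave 0 as well.

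Probes of a gene did not always move together. HIST1H2AC has a coding probe, which begins at the start codon shown in capitals and lies at chr6:26124461-26124520 on the plus strand of hg19.
HIST1H2AC: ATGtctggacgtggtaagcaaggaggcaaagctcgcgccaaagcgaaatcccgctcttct

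This probe fell by 0.81 with TSA and by 0.85 in siUHRF1 + TSA, and a probe just upstream fell by 1.09 and 1.30 (adjusted p = 0.0269 and 0.0078). A probe 14.3 kb downstream, at chr6:26138822-26138881, which the array's annotation gives to the same gene, changed by 0.26 and rose by 0.91 (SE 0.128, adjusted p = 0.00582). Its levels were -2.07 and -2.15 in siCONT, -1.69 and -1.81 in siUHRF1, -1.79 and -1.91 in siCONT + TSA, and -1.34 and -1.06 in siUHRF1 + TSA, so every treated array was above the controls. On the 5-aza-dC array these probes stood 0.44 above the siCONT mean, at -1.47 from it and 2.16 above it, in the order coding, upstream and downstream. HIST1H2BK showed a like arrangement, with a probe 8.19 kb downstream of its coding probe: the downstream probe changed by 0.58 and the coding probe by 0.04 in siUHRF1 + TSA, and by 2.37 and 1.16 on the 5-aza-dC array. Neither HIST1H2BK probe passed in siUHRF1 + TSA. HIST1H4K had a stem-loop probe at 0.75 and a coding probe at -0.30 in the same comparison, and neither passed. That stem-loop probe shares a run of 37 bases with the HIST1H4J probe, which changed by 0.71. Signals of HIST1H4K and HIST1H4J may thus be mixed, which was not tested.

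The 5-aza-dC array is a single array on another slide and scan without siRNA, so its differences from siCONT have no replicate check, and treatment, slide, scan and transfection cannot be told apart. Against the siCONT mean, 20 of 66 clustered genes above background were over 2-fold higher and 9 over 2-fold lower, where 18.3% of all genes were higher and 13.2% lower. A gene counted when it was above background on this array or on both arrays of any siRNA group. HIST1H1B, HIST1H1T, HIST1H2AA, HIST1H2AL, HIST1H2BE and HIST1H4G entered through this array alone. Each was over 2-fold higher, so the count of higher genes is not independent of that selection. The shares of all genes used the same filter. Of the 10 variants, 1 was over 2-fold higher and 0 lower. Family medians ran from 2.27 for H1 through 0.76 for H2B, 0.13 for H2A and 0.05 for H3 to -0.67 for H4. The H1 median was 0.60 with normexp, and 3 of the 6 H1 genes were not above background in siCONT. It includes HIST1H1B (4.64) and HIST1H1T (3.30), which entered through this array alone. The place of H1 above the other families is therefore not independent of that selection. The H1 genes above background in siCONT, HIST1H1C, HIST1H1E and HIST1H1D, differed by 1.25, -0.30 and -1.29. Scaling on spike-in probes moved all genes by a median of -1.71 and turned the H2A, H2B and H3 medians to -1.62, -0.99 and -1.70, with an H1 median of 0.52 and 6 histone genes higher and 50 lower, so the directions of these families hold only relative to the other genes of the array.

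Several genes not above background in siCONT were above it on this array. More probes of any kind passed there: 51.6% of all probes, against 45.5% and 44.7% on the siCONT arrays. Its 75th percentile of signal was 822, against 282 and 285 on those arrays. The share of all genes that left background was not counted, so leaving it is not shown to be particular to histone genes. HIST1H1A stood at 2.98 on the 5-aza-dC array and was at least 158-fold higher than in siCONT. HIST1H2AL was at least 9.41-fold higher, HIST1H1B at least 6.79-fold, HIST1H2BE at least 3.43-fold and HIST1H1T, the testis linker histone gene, at least 2.68-fold. None of these was above background on a siCONT array. These bounds hold on the scale of the processed signal. With normexp the log2 differences were 5.55 for HIST1H1A, 1.47 for HIST1H2AL, 1.12 for HIST1H1B, 0.17 for HIST1H2BE and 0.07 for HIST1H1T, below all 5 bounds. HIST1H2BE and HIST1H1T are thus near siCONT with that correction. H2AFJ stood at 3.54 and was 131-fold higher with its brightest probe. This change of 7.04 was 5.41 with normexp and 5.29 with spike-in scaling. Its second probe gave 0.87 but was not above background on any siRNA array or on the 5-aza-dC array. The H2AFJ rise thus rests on the brightest probe alone. HIST2H2AA4, HIST1H2BK and HIST1H3I were higher by 2.38, 2.37 and 2.31. HIST1H2AA changed by 3.39, with 1 siCONT array above background. The genes over 2-fold lower were HIST1H2BF (-1.77), HIST2H2AC (-1.52), HIST1H4E (-1.30), HIST1H3B (-1.29), HIST1H1D (-1.29), HIST1H2AG (-1.25), HIST1H4C (-1.14), HIST2H3A (-1.10) and HIST1H4A (-1.04). Among variants outside the rule, CENPA, the centromeric H3, stood at 0.48 and 0.50 in siCONT and 1.21 on this array. H2AFB3, an H2A variant of testis, was at -5.23 and -5.39 in siCONT and at 3.28 on this array. H2AFB2 was at -5.34 and -4.87 against 1.51, and H2BFWT, a testis H2B gene, at -6.36 and -6.27 against -1.22. H2AFB3, H2AFB2 and H2BFWT were above background on 3, 0 and 1 of the 8 siRNA arrays. The other outside variants did not all rise. H1FNT was at -3.53 and -3.32 against -2.81, and HILS1 at -5.67 and -5.58 against -5.21. H1FOO was at -6.28 and -6.17 against -6.76, and H2BFM at -6.40 and -6.29 against -6.91. HILS1, H1FOO and H2BFM were above background on no siRNA array.

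**Figure D5:**
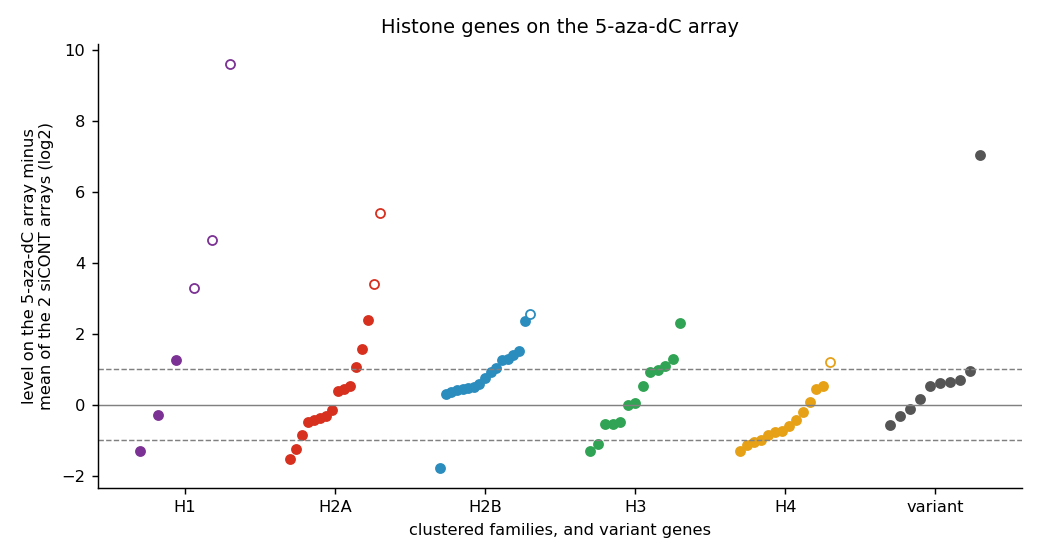
Difference of the 5-aza-dC array from the siCONT mean (log2, vertical axis) for 66 clustered and 10 variant genes by family (horizontal axis); open points were not above background on both siCONT arrays and dashed lines mark 2-fold. HIST1H1A, against controls not above background, and H2AFJ at 7.04 lie highest, and H4 genes lie mostly below 0.

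The promoters of the 2 genes with the largest differences on that array were read for CG pairs, the sites of DNA methylation. The HIST1H1A promoter (chr6:26017738-26018037, minus strand, GRCh38.p14) holds 17 CG pairs in 300 bases and the H2AFJ promoter (chr12:14774155-14774454, plus strand) 22, where the median was 11 over clustered, 27 over variant and 14 over all promoters. They are shown with CG in capitals. DNA methylation was not measured on these arrays.
HIST1H1A: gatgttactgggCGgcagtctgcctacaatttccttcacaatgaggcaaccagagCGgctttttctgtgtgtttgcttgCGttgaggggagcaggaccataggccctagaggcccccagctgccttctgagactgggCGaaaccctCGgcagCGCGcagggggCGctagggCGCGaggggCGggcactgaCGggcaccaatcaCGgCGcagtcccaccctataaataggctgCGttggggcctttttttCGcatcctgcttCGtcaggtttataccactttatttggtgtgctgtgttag
H2AFJ: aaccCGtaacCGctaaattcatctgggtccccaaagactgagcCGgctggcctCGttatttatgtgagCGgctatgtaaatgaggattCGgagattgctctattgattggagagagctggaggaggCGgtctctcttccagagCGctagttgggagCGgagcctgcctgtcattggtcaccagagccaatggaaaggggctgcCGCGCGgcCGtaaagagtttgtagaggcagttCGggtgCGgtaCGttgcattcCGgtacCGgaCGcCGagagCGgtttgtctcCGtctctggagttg

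Genes that act with histones moved as follows. Of all genes, 6.97% were called higher and 3.86% lower with TSA, and 16.1% and 8.07% in siUHRF1 + TSA. Of 30 DNA replication genes, 12 fell and 0 rose with TSA, among them CDC45 (-1.34), PRIM1 (-0.77) and RFC2 (-0.84), and 21 fell in siUHRF1 + TSA, among them PRIM1 (-1.45), CDC45 (-1.37) and MCM6 (-1.14). Their median change was -0.57 with TSA and -0.78 in siUHRF1 + TSA, so lower levels were also found among genes of S phase that are not histone genes, and their part in the histone results was not tested. Of 24 genes of histone mRNA transcription, processing and decay, 2 rose and 2 fell with TSA: SRRT (0.84) and LSM10 (0.68), ZNF473 (-0.73) and ERI1 (-0.61). In siUHRF1 + TSA 2 rose and 5 fell, and those of lowest p were SRRT (0.85), LSM10 (0.79) and ERI1 (-0.51). SLBP, which binds the stem-loop, stood at 3.61 and 3.63 in siCONT, 3.83 and 3.61 in siUHRF1, 3.46 and 3.54 in siCONT + TSA and 3.71 and 3.48 in siUHRF1 + TSA, with overlap between siCONT and siUHRF1 + TSA. NPAT, the cyclin E/CDK2 target that activates clustered histone genes, stood at -2.67 and -2.47 in siCONT and -3.58 and -3.56 in siUHRF1 + TSA, and fell by 1.00 (SE 0.267, adjusted p = 0.0413). CASP8AP2, a protein of the histone locus body, changed by -0.67 (adjusted p = 0.0617). Of 38 tested histone chaperones and related factors, 4 fell with TSA and 6 in siUHRF1 + TSA, and 0 rose in either. ASF1B, which hands H3 and H4 to the replication chaperone, fell by 0.77 and 0.75.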

How the data were processed

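The data are 9 one-colour human Agilent arrays of RKO cells. The authors extracted total RNA, labelled it with a poly(A)-primed kit and scanned 1 array per sample. The deposited values are scanner intensity values per spot, made with Agilent Feature Extraction 10.7 as the submitters' processing notes name it, with the build hg19 in the file headers. The deposited table of intensity values for the whole series matched them and served as an alternative.

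Here, log2 of the processed signal minus each array's 75th percentile was taken, outlier spots were left out and spots of a probe averaged. A probe was tested when both arrays of any siRNA group gave signal well above background. Tests used limma 3.58.1 in R 4.3.3 on the 8 siRNA arrays, with Benjamini-Hochberg adjustment over all probes. A change was called at an adjusted p under 0.05. A gene was read from its brightest probe over the 8 arrays. The 5-aza-dC array has no test. The 8 siRNA arrays lay on 1 slide with TSA and mock in different slide rows, so TSA and slide row cannot be told apart. The share of probes with such signal ran from 43.6% to 46.6% over the siRNA groups and was 51.6% after 5-aza-dC, and the number of arrays limits the precision.

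Named genes were all variants, the 8 largest called rises and falls of clustered genes per comparison, genes that left background, 3 genes per pathway list, and CENPA, SLBP, NPAT and CASP8AP2; genes outside this rule were chosen after their values were seen. The members, gene lists and rules were chosen with earlier results of these data known. Gene lists were colorectal epithelial and other-cell markers, DNA replication, histone mRNA processing, chaperones and other histone variants, of which 2 of 8 on the array were tested and 0 called. Alternatives were scaling, background correction, filters, probe choice, prior, replicate block, the methods' t-test and leaving out each array. The fit was tested on simulated data. Python 3.11.15 with pandas 2.3.3 and matplotlib 3.10.9 drew the plots.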

Additional observations from a re-analysis of the deposited data

How the results depend on the processing

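Of 39 called results for single genes, 0 changed direction under any alternative run. HIST1H1A, HIST1H3A, HIST1H4L and H1F0 in siUHRF1 + TSA against siCONT were called wherever they were tested, except under the adjusted methods' t-test. HIST1H1A passed the filter only through groups where it was high. The counts of called histone genes moved more, and are given in the order siUHRF1, TSA, siUHRF1 + TSA against siCONT, siUHRF1 + TSA against siCONT + TSA, against siUHRF1, and the difference between depletion effects. As reported they were 0, 4, 21, 2, 12 and 0. Normexp gave 0, 6, 17, 0, 8 and 0. Quantile normalization gave 1, 17, 27, 6, 19 and 0. Spike-in scaling gave 1, 21, 32, 2, 22 and 0. No filter on dim probes gave 0, 1, 9, 1, 3 and 0. A filter on all 8 arrays gave 0, 6, 21, 0, 12 and 0. The mean of all probes gave 1, 2, 22, 3, 14 and 0. A trended robust prior gave 1, 16, 29, 5, 18 and 0. An unadjusted p under 0.05 gave 5, 31, 34, 11, 28 and 2. For the first 5 comparisons, only the arrays compared gave 0, 57, 18, 1 and 0, and the methods' t-test gave 4, 56, 17, 6 and 6 unadjusted and 0, 38, 0, 0 and 0 adjusted. Neither was run for the difference. Leaving out each array gave 0 to 1, 0 to 23, 4 to 32, 1 to 4, 1 to 14 and 0.

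With the replicate number as a replicate block, the counts were 1, 4, 26, 2, 15 and 0. Replicate numbers pair only the siUHRF1 arrays, by siRNA. With siRNA number as a replicate block in those groups, chosen after seeing the data, they were 2, 49, 48, 13, 45 and 0. In the siRNA fit, 29, 17 and 42 calls (siUHRF1-1, siUHRF1-2, between them) became 0, 1 and 0 with normexp and 13, 6 and 10 with spike-in scaling. For 5-aza-dC, 30 histone genes past 2-fold became 56 with spike-in scaling.

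The median change of variants in siUHRF1 + TSA against siUHRF1, 0.05, was -0.092 with quantile normalization and -0.12 with spike-in scaling. It ran from -0.10 to 0.20 when each array was left out, and was -0.10 without siUHRF1 + TSA replicate 2 and -0.069 without siUHRF1 replicate 1. Spike-in scaling moved the median of all genes with TSA from 0.08 to -0.11, and the share of called genes that were higher from 64.4% to 37.0%. Quantile normalization gave 55.2% and normexp 48.4%. The causes were not tested.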
